A study of Mus musculus with 2 samples.

Results

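The cells described here are macrophages of the pressure-loaded mouse left ventricle that hold RNA of Mrc1, F13a1 and related genes. The macrophages were chosen by measured counts: a barcode, the tag of 1 captured cell or nucleus, was taken when it met 4 conditions on its unique molecular identifiers (UMIs, single counted RNA molecules). It held at least 3 UMIs summed over C1qa, C1qb, C1qc, Mrc1, F13a1, Csf1r, Adgre1 and Cd163, from 2 or more of these 8 genes. It held at most 1 UMI over Gpnmb, Arg1, Mmp12 and Trem2, which mark lipid-associated macrophages, and at most 1 over Pecam1, Cdh5 and Pdgfra, which mark endothelial cells and fibroblasts. The cardiomyocyte genes Ttn, Myh6, Ryr2 and Tnnt2 made up under 2.5% of its UMIs outside the mitochondrial genes. The conditions took 1530 of 26178 barcodes, or 5.84%.

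The study compared p53 knockout mice with wild-type mice, each 6 weeks after transverse aortic constriction (TAC), a narrowing of the aorta by surgery that makes the left ventricle pump against a raised pressure. Each group was 1 library made from the left ventricles of 3 hearts mixed together, and no unoperated group was used here. The labels give neither the strain, the sex nor the age of the mice, nor how p53 was removed, and they name the cells as cardiomyocytes although the barcodes belonged to many cell types. With 1 library per group there is no replicate check of any difference and no test was possible. All intervals printed are 95% intervals that cover counting error only, not differences between hearts, dissections or library preparations.

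Cardiac macrophages have several origins. Cells seeded before birth renew themselves in the tissue and are marked by Timd4, Lyve1 and Folr2, whereas blood monocytes that enter through the chemokine receptor Ccr2 give rise to further macrophages, often with more MHC class II. Mrc1 encodes the mannose receptor CD206, F13a1 the A subunit of clotting factor XIII, and Cd163 the scavenger receptor for haemoglobin bound to haptoglobin. Macrophages clear dying cells, handle iron and lipid, present antigen and signal to fibroblasts, and these tasks are used below to group the genes.

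There were 10118 barcodes with 20918824 UMIs in total under the p53 knockout label, and 16060 barcodes with 18897913 UMIs under the wild-type label. The targeted gene was near even between the labels: Trp53 (ENSMUSG00000059552, chromosome 11, 69580359 to 69591873, mm10) had 66 UMIs in the macrophages of the library labelled p53 knockout and 56 UMIs in those labelled wild type. That is 61.8 CPM (47.8 to 78.6) and 57.1 CPM (43.1 to 74.2), where CPM is the UMIs of a gene scaled to a total of 1000000 outside the mitochondrial genes. A 3' count cannot show a deletion that leaves the transcript's end in place, so the names below are those of the labels. The female-specific RNA Xist had 1127 CPM in the macrophages labelled p53 knockout and 1.02 CPM in those labelled wild type. The Y-linked genes Ddx3y, Eif2s3y and Kdm5d had 0 UMIs in the library labelled p53 knockout, against 180, 103 and 82 UMIs in the library labelled wild type. They were at least 65.4-fold, 37.4-fold and 29.8-fold lower there, taken against a floor of 3 UMIs per library. Uty had 10.3 CPM and 282 CPM. A difference between the labels therefore cannot be told apart from a difference in the sex of the hearts. The libraries shared 105 barcode sequences. Of these, 10 were macrophages in the library labelled p53 knockout and 6 in the library labelled wild type, and 1 was a macrophage in both.

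Macrophages made up 6.44% (5.97 to 6.94) of barcodes in the library labelled p53 knockout, 652 of 10118, and 5.47% (5.12 to 5.83) in the library labelled wild type, 878 of 16060. The share was 1.18 times as high (log2 ratio 0.24). The libraries differed in how many barcodes were cardiomyocytes. Among barcodes with under 5% cardiomyocyte RNA, macrophages were 6.66% (6.17 to 7.17) in the library labelled p53 knockout and 6.20% (5.81 to 6.61) in that labelled wild type, and these intervals overlapped. With every barcode thinned to 500 UMIs before the conditions were applied, 4.96% (4.55 to 5.40) and 4.52% (4.20 to 4.85) qualified.

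The median macrophage held 1386 UMIs and 896 genes in the library labelled p53 knockout, and 1017.5 UMIs and 678.5 genes in the library labelled wild type. Median UMIs of all other barcodes were 1551 and 936. The median mitochondrial share of the macrophages was 1.92% and 2.45%. Summed over macrophages there were 1067881 and 980376 UMIs outside mitochondrial genes, so sums are of like size while single barcodes are deeper in the library labelled p53 knockout. For that reason shares of cells are given after each barcode was thinned at random to 500 UMIs, the lowest total in either library.

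Values near the limits of the choice were as follows. The 8 choosing genes gave a median of 10 UMIs per macrophage in the library labelled p53 knockout (quartiles 5 and 19) and 9 in the library labelled wild type (5 and 15). Exactly 3 UMIs were held by 69 and 104 macrophages, whereas 120 and 135 barcodes just outside held 2 UMIs from 2 genes. A single UMI of the Gpnmb group was held by 76 macrophages labelled p53 knockout and 30 labelled wild type, and 2 UMIs excluded 23 and 7 further barcodes. A single UMI of Pecam1, Cdh5 or Pdgfra was held by 121 and 173 macrophages, and 2 UMIs excluded 73 and 55. A cardiomyocyte share of 2% to 2.5% was found in 3 and 24 macrophages, and one of 2.5% to 3% in 1 and 18 barcodes left out.

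Mrc1 was lower under the p53 knockout label and C1qb was higher, while F13a1 and Cd163 had smaller differences that were gone when the cells were chosen at equal depth. These genes chose the cells, so their values are a description. Mrc1 (chromosome 2, 14229392 to 14332057, mm10) had 1879 CPM (1798 to 1963) in the library labelled p53 knockout and 2748 CPM (2645 to 2854) in the library labelled wild type (log2 ratio -0.55). F13a1 (chromosome 13, 36867178 to 37050244) had 3188 CPM and 3698 CPM (log2 ratio -0.21). Cd163 (chromosome 6, 124304656 to 124330527) had 768 CPM and 919 CPM (log2 ratio -0.26). C1qb, a chain of the complement starter C1q, had 881 CPM and 625 CPM (log2 ratio 0.49), whereas its partner C1qa had 809 CPM and 780.3 CPM. Csf1r, the receptor that macrophages need to survive, had 826 UMIs and 670 UMIs, and the F4/80 gene Adgre1 had 626 UMIs and 518 UMIs. The depth of the barcodes entered these values: when the conditions were applied to barcodes thinned to 500 UMIs, the ratio of F13a1 was 0.00083 and that of Cd163 was -0.01.

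**Figure D1:**
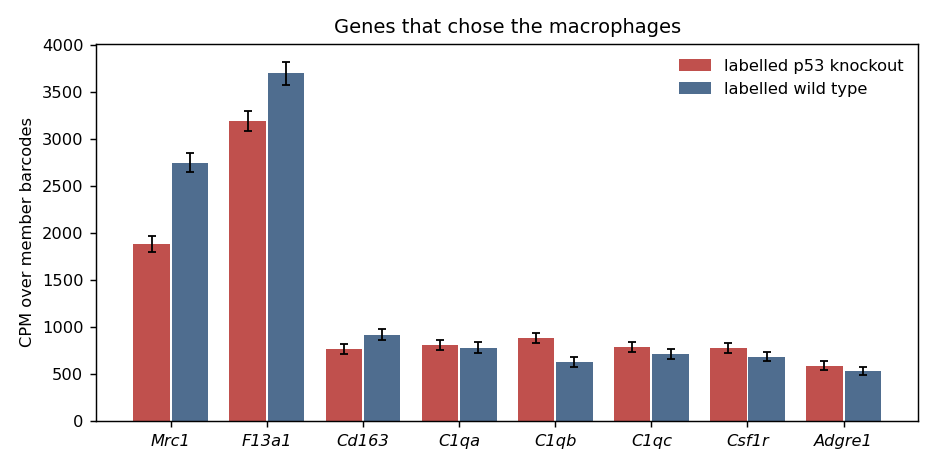
CPM of the 8 choosing genes over the macrophages of each library (y axis), with the library labelled p53 knockout at the left of each pair and 95% Poisson intervals as bars; values are to be compared between libraries within a gene. Mrc1 stood at 1879 CPM in the library labelled p53 knockout and 2748 CPM in the library labelled wild type.

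Few single macrophages held all of these genes. At 500 UMIs, Mrc1 was found in 47.7% (43.8 to 51.6) of macrophages labelled p53 knockout and 62.2% of those labelled wild type. F13a1 was found in 52.1% (48.2 to 56.0) and 66.1%, and Cd163 in 20.9% (17.8 to 24.2) and 28.4%. These genes chose the macrophages at full depth, before thinning, so the choice enters these shares and they are a description. After thinning, 435 of the 652 macrophages labelled p53 knockout and 679 of the 878 labelled wild type still met the conditions. At full depth, 89.4% and 96.2% held a UMI of at least 1 of the 3. The remaining 69 macrophages labelled p53 knockout and 33 labelled wild type met the conditions through C1q, Csf1r and Adgre1 alone. All 8 choosing genes were found in 34 macrophages labelled p53 knockout and 20 labelled wild type.

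Macrophage genes that took no part in the choice were checked next. The 17 of them, among them Ptprc (CD45), Lyz2 (lysozyme), Cd68, Fcgr1, Mertk and the lineage factor Spi1, summed to 6858 CPM in the macrophages and 884 CPM in all other barcodes of the library labelled p53 knockout. In the library labelled wild type they summed to 4735 CPM and 389 CPM. All 17 were detected in both libraries. Among genes with at least 200 UMIs in the macrophages of each library, the 15 with the highest fold over other barcodes in the poorer of the libraries are given next. Ms4a4a, a tetraspan membrane protein of macrophages, stood 33.3-fold above other barcodes in the library labelled p53 knockout and 34.3-fold in that labelled wild type. Aoah, the hydrolase that inactivates bacterial lipopolysaccharide, stood 24.3-fold and 24.1-fold above, and the T cell costimulator Cd86 19.7-fold in both. Among those that followed were Ms4a6b, Ms4a6c, Ptpro, Lyz2, Ccl6, Slc9a9, Ctsc, Fcgr3, Fgd2, Tbxas1 and Epsti1, at 13.2-fold to 16.4-fold in the library labelled p53 knockout and 15.8-fold to 25.1-fold in that labelled wild type. Between the libraries these 15 genes differed by less than 2-fold, with log2 ratios from -0.39 for Ctsc to 0.70 for Ms4a4a. The choice required many UMIs and a high fold in both libraries, so it left out genes low in 1 of them, and these ratios are a description.

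The resident part of the name held for some of the cells. At 500 UMIs, a UMI of Timd4, Lyve1 or Folr2 was found in 10.3% (8.05 to 12.9) of macrophages labelled p53 knockout, 67 of 652, and 31.0% (27.9 to 34.2) of those labelled wild type, 272 of 878. Ccr2 was found in 7.36% (5.48 to 9.64) and 4.33% (3.08 to 5.89). The cells are therefore called macrophages below, with the genes they hold. Fibroblasts, which are not known for these genes, had lower shares at the same depth: 1.53% and 1.95% held Timd4, Lyve1 or Folr2, and 0.639% and 0.286% held Ccr2. The fibroblasts' median UMIs were 1762 in the library labelled p53 knockout and 1059 in that labelled wild type.

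**Figure D2:**
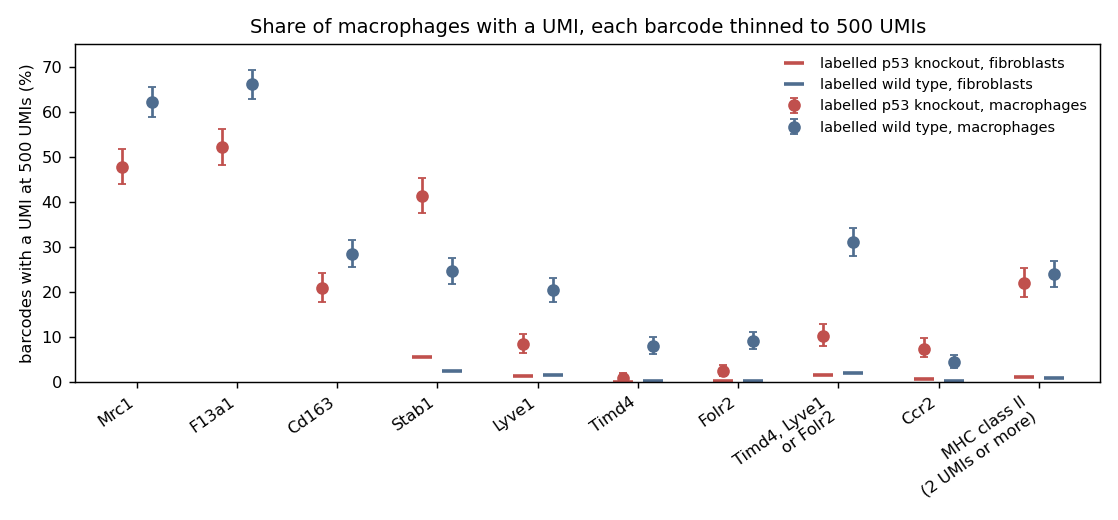
Share of barcodes with a UMI after thinning to 500 UMIs (y axis, percent) for named genes (x axis): circles are macrophages with exact 95% intervals, dashes are fibroblasts of the same library, and the library labelled p53 knockout is at the left of each pair. Timd4, Lyve1 or Folr2 stood at 10.3% and 31.0% of macrophages, Stab1 at 41.3% and 24.6%, and MHC class II at 21.9% and 23.9%. Mrc1, F13a1 and Cd163 chose the macrophages before thinning, so their shares are a description.

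Between the libraries, 10816 genes had at least 20 UMIs summed over the macrophages of both libraries together and are called measured. The median log2 ratio, with 0.5 UMI added to each sum, was -0.03 with quartiles of -0.49 and 0.40. A log2 ratio of 1 or more, a 2-fold difference, was met by 819 genes (7.57%), and one of -1 or less by 1062 genes (9.82%), while 47.8% of genes lay above 0. Some of these differences were also seen in all other barcodes together: 436 of the 819 were 2-fold higher there, and 376 of the 1062 2-fold lower. The share of all measured genes past 2-fold there is not given, so these counts are a description. The median of each list in all other barcodes is given beside its median in macrophages. That pool mixes cell types whose shares differed between the libraries. Cardiomyocytes were 3.04% of barcodes labelled p53 knockout and 11.1% of those labelled wild type, and endothelial cells 37.3% and 21.9%. A ratio of the pool is therefore not one within a cell type.

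Under the p53 knockout label, genes of resident macrophages stood lower. Of 23 such genes outside the choice, 21 reached 20 UMIs, 0 of these were 2-fold higher and 11 were 2-fold lower, against a background of 7.57% and 9.82% of all genes. Their median log2 ratio was -1.12 in macrophages and -0.14 in all other barcodes, and they summed to 4094 CPM and 5054 CPM. Lyve1 (chromosome 7, 110850607 to 110863239), the hyaluronan receptor shared with lymphatic vessels, had 299 UMIs or 280.0 CPM in the library labelled p53 knockout and 614 UMIs or 626 CPM in the library labelled wild type. Its log2 ratio was -1.16 (-1.37 to -0.96). Timd4 (chromosome 11, 46810800 to 46844332), a receptor for phosphatidylserine on dying cells, had 42.1 CPM and 189 CPM (log2 ratio -2.15, -2.67 to -1.69). Folr2 (chromosome 7, 101839988 to 101857194), the folate receptor of tissue macrophages, had 67.4 CPM and 241 CPM (log2 ratio -1.83, -2.24 to -1.45). All 3 markers of the self-renewing cells thus stood lower, with intervals that did not reach 0. Unlike the list median, Timd4 and Folr2 were also lower in all other barcodes, at -1.70 (-2.25 to -1.19) and -1.16 (-1.60 to -0.75).

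Other resident genes covered a wide range. Cd209f, a lectin, had 3 UMIs in the library labelled p53 knockout and 35 UMIs in that labelled wild type, the lowest ratio of the list at -3.47. The C-type lectin Mgl2 had 84 UMIs and 210 UMIs, the carbonyl reductase Cbr2 137 and 288 UMIs, and the platelet factor gene Pf4 124 and 248 UMIs. Mgl2 was at -1.44 in macrophages and -1.57 in all other barcodes. Retnla, a secreted protein of alternatively activated macrophages, had 25 UMIs in the library labelled p53 knockout and 92 UMIs in that labelled wild type, found in 0.460% (0.0950 to 1.34) and 2.96% (1.94 to 4.31) of macrophages at 500 UMIs. The growth factor Igf1 had 156 UMIs and 259 UMIs. Its log2 ratio in macrophages was -0.85 (-1.15 to -0.56), whereas in all other barcodes it was 0.81. Selenop, the plasma selenium carrier, lay near even at -0.26. Stab1 went the other way: this scavenger receptor had 1369 CPM and 725 CPM (log2 ratio 0.92, 0.79 to 1.05), and was found in 41.3% (37.4 to 45.1) and 24.6% (21.8 to 27.6) of macrophages at 500 UMIs. In fibroblasts at that depth Stab1 was found in 5.41% and 2.44%, and the Stab1 ratio in all other barcodes was 1.94.

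Genes of monocytes and newly derived macrophages stood higher under the p53 knockout label. Of 14 measured, 9 were 2-fold higher and 0 were 2-fold lower, against 7.57% and 9.82% of all genes, with a median log2 ratio of 1.85. The list summed to 1218 CPM and 525 CPM, a log2 ratio of 1.21. A gene counts as measured by its UMIs over both libraries together. A gene almost absent from 1 library, such as Chil3, therefore entered through the library where it was high, and the count and median are a description. The same genes stood higher in all other barcodes, at a median of 2.33. That pool held 66 monocyte or dendritic barcodes in the library labelled p53 knockout and 17 in that labelled wild type. It also held 99 and 14 macrophages with 2 or more UMIs of the Gpnmb group. The part of these barcodes in the median was not tested. Ccr2, which draws monocytes out of the marrow and into tissue, had 321 UMIs and 162 UMIs (log2 ratio 0.86, 0.59 to 1.14). Chil3, a chitinase-like secreted protein of monocytes, had 75 UMIs and 1 UMI. Its interval ran from 3.58 to 11.4. The integrin gene Itgax (CD11c) had 56 UMIs in the library labelled p53 knockout and 0 in the library labelled wild type, at least 17.1-fold higher against a floor of 3 UMIs. Vcan, a matrix proteoglycan made by monocytes, had 165 UMIs and 52 UMIs, and S100a6, a calcium-binding protein, 132 UMIs and 71 UMIs. The nuclear receptor Nr4a1, needed by patrolling monocytes, was near even at 84 UMIs and 67 UMIs, with an interval from -0.28 to 0.69.

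**Figure D3:**
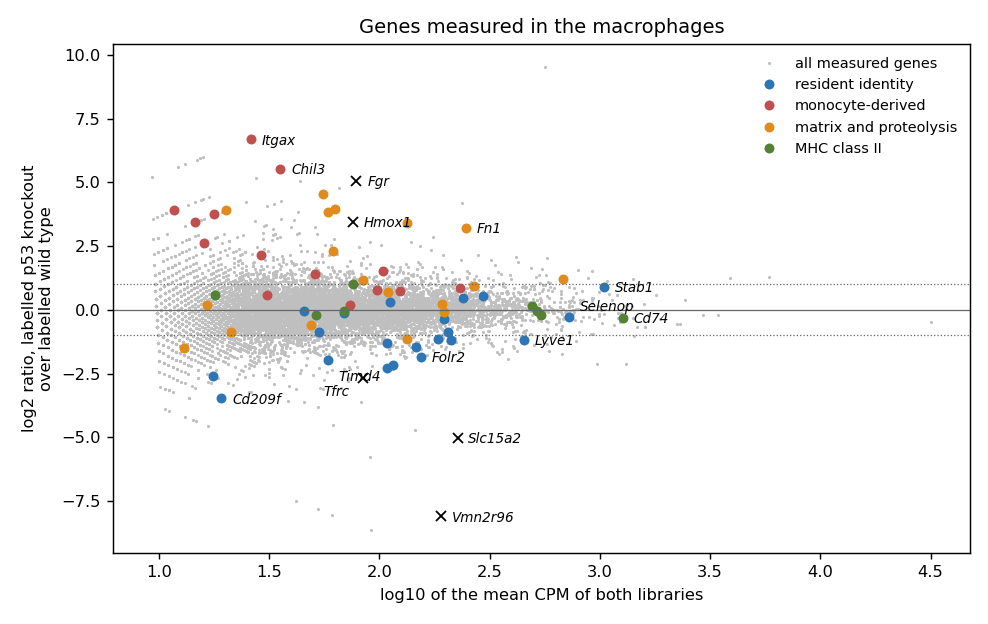
Each point is 1 gene measured in macrophages, placed by the log10 of its mean CPM over both libraries (x axis) and its log2 ratio, p53 knockout label over wild-type label (y axis, 0.5 UMI added to each sum), with dotted lines at 2-fold. Resident genes lie mostly below 0 with a median of -1.12, monocyte genes above 0 with a median of 1.85, and MHC class II genes around 0.

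Joint detection within single cells was examined in each library. Among the 48 macrophages labelled p53 knockout with Ccr2 at 500 UMIs, 0 held a UMI of Timd4, Lyve1 or Folr2 (up to 7.40% by the exact interval, for cells with a UMI at this depth), against 11.1% (8.70 to 13.9) of the 604 without Ccr2. In the library labelled wild type it was 1 of 38, against 32.3% (29.1 to 35.5) of the 840 without Ccr2. At full depth the separation was weaker: 5 of 97 macrophages with Ccr2 labelled p53 knockout held them, 5.15% (1.69 to 11.6) against 24.7% of those without, and 11 of 51 labelled wild type, 21.6% (11.3 to 35.3) against 45.5%. MHC class II, counted as 2 or more UMIs of H2-Aa, H2-Ab1, H2-Eb1 and Cd74 together, was found in 54.2% (39.2 to 68.6) of Ccr2-holding macrophages labelled p53 knockout and 19.4% (16.3 to 22.7) of those without. In the library labelled wild type it was found in 81.6% (65.7 to 92.3) and 21.3% (18.6 to 24.2). In the library labelled wild type, MHC class II was found in 11.8% (8.19 to 16.2) of cells with Timd4, Lyve1 or Folr2 and 29.4% (25.8 to 33.2) of the rest. The corresponding shares labelled p53 knockout were 13.4% (6.33 to 24.0) and 22.9% (19.6 to 26.5), whose intervals overlapped. F13a1 was found in 79.6% (66.5 to 89.4) of Lyve1-holding macrophages labelled p53 knockout and 49.7% of the rest, and in 80.9% (74.3 to 86.4) and 62.3% in the library labelled wild type.

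**Figure D4:**
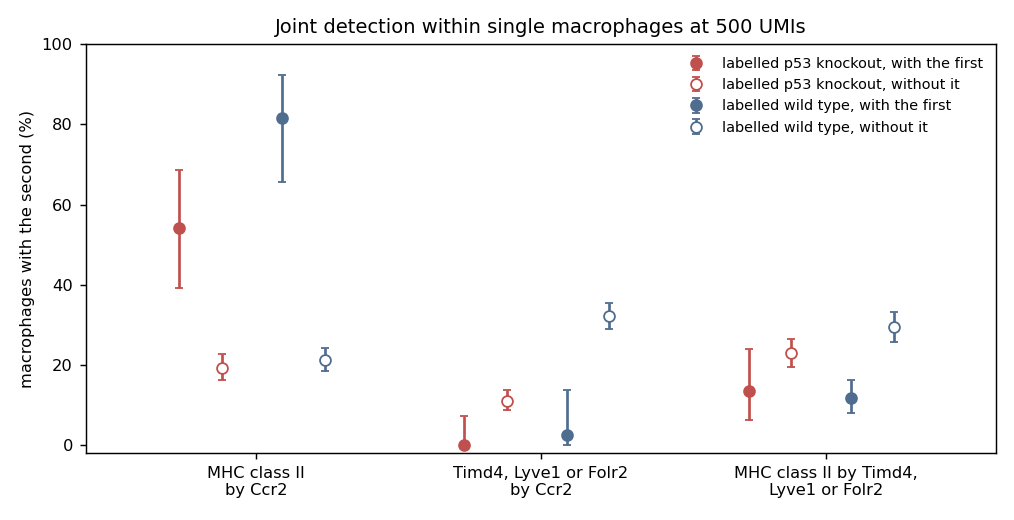
Share of macrophages holding a second gene or gene group (y axis, percent) among those with (filled) and without (open) a first one, at 500 UMIs with exact 95% intervals, the library labelled p53 knockout at the left of each group. MHC class II stood at 54.2% and 81.6% in macrophages with Ccr2, against 19.4% and 21.3% in those without.

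Splitting the macrophages by these genes at full depth gave 142 macrophages labelled p53 knockout and 387 labelled wild type with Timd4, Lyve1 or Folr2. There were 97 and 51 with Ccr2, and 418 and 451 with neither. The 5 and 11 macrophages that held both kinds are counted under each. Median UMIs were 1812.5 and 1112 in the first set, 1938 and 1198 in the second and 1225 and 915 in the third. The sets therefore differ in depth as well as in these genes. Within the Timd4, Lyve1 or Folr2 set the median ratio of the resident genes was -0.28, compared with -1.12 over all macrophages. Lyve1 itself was at -0.27 there and F13a1 at 0.30. In the cells with Ccr2 the median of the resident genes was -0.80, and in those with neither it was -0.15. The monocyte genes had medians of 0.16, 2.67 and 0.95 in the 3 sets. The genes measured within each set differed in number. They were 21, 12 and 15 resident genes, beside 21 over all macrophages, and 6, 8 and 10 monocyte genes, beside 14. The medians of the sets therefore do not cover the same genes, and the part of this in their differences was not tested. Since Timd4, Lyve1, Folr2 and Ccr2 define the sets and belong to these lists, the medians are a description.

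MHC class II genes, which present peptides to helper T cells, were near even over all macrophages. Of 8 measured, 1 was 2-fold higher and 0 were 2-fold lower, with a median of -0.04 against 1.18 in all other barcodes, and they summed to 2919 CPM and 3166 CPM. Cd74, the invariant chain, had 1135 CPM in the library labelled p53 knockout and 1400.5 CPM in that labelled wild type (log2 ratio -0.30). H2-Aa had 519 CPM and 470.2 CPM, H2-Ab1 506 and 575 CPM, and H2-Eb1 510.4 and 524 CPM. Ciita, the coactivator that switches the group on, was the member past 2-fold, with 109 UMIs and 49 UMIs (log2 ratio 1.02, 0.53 to 1.55). The value differed between the sets of macrophages. Cd74 was at 0.01 (-0.25 to 0.27) in macrophages with Timd4, Lyve1 or Folr2, at -1.16 (-1.34 to -0.97) in those with Ccr2 and at -0.90 (-1.08 to -0.73) in those with neither. In the cells with Ccr2, Cd74 had 577 UMIs or 2735 CPM in the library labelled p53 knockout and 405 UMIs or 6092 CPM in that labelled wild type. Without macrophages holding 2 or more UMIs of B cell, T or NK cell, dendritic, neutrophil or lymphatic endothelial markers, the median of the MHC class II genes was -0.66.

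The MHC class II genes were found together in the same cells. Among macrophages labelled p53 knockout with H2-Aa at 500 UMIs, 47.4% (37.0 to 57.9) also held H2-Eb1, against 8.44% (6.27 to 11.1) of those without H2-Aa. The library labelled wild type had 55.6% (45.7 to 65.1) and 8.44% (6.58 to 10.6). These genes are known to share a promoter module whose Y box, read by the factor NF-Y, has the core ATTGG. The 150 bases before the start were searched for ATTGG on both strands, so that CCAAT counts as well. Promoter sequences are from RefSeq on GRCm38.p6, and 7 of the 10 genes in the list matched. These 7 genes had 8 promoters, since H2-DMa had 2. Of the 8 promoters, 6 held the core, each of a different gene, compared with 24.5% of 32851 promoters in the table. The 3 with the most UMIs among those matched are printed 5' to 3' along the gene's strand to show where the core lies, with the core in capitals. They are H2-Eb1 at chr17:34305717-34305866 on the plus strand, H2-Aa at chr17:34287824-34287973 on the minus strand and H2-DMb1, a chain of the peptide loader H2-M, at chr17:34153041-34153190 on the plus strand. The capitals begin 59 and 35 bases before the start in H2-Eb1, 48 in H2-Aa and 61 in H2-DMb1.
H2-Eb1: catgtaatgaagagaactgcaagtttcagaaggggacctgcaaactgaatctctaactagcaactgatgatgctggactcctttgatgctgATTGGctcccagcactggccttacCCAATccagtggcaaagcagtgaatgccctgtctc
H2-Aa: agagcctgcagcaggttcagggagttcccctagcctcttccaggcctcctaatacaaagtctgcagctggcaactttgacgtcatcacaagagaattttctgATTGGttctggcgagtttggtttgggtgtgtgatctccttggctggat
H2-DMb1: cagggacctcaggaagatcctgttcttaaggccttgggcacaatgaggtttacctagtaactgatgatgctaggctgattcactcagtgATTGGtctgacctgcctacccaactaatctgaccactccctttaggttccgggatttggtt
A match of these letters is a description of the sequence, not a bound site.

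Class I genes had a positive median, and most differed by less than 2-fold. Of 11 measured, 9 lay above 0, 1 was 2-fold higher and 0 were 2-fold lower. The shares past 2-fold over all genes were 7.57% and 9.82%. The median was 0.37, beside 0.75 in all other barcodes. H2-K1, a heavy chain, was the one past 2-fold, with 1328 UMIs in the library labelled p53 knockout and 513 UMIs in that labelled wild type (1.10 to 1.40). H2-D1, the other classical heavy chain measured, had 860 UMIs and 644 UMIs, and the light chain B2m 863 and 625 UMIs. H2-T23 went the other way, with a log2 ratio of -0.65.

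Receptors and enzymes for taking up and digesting material had positive medians in macrophages and in all other barcodes alike. Of 18 measured genes for the uptake of dying cells, 14 lay above 0, 2 were 2-fold higher and 1 was 2-fold lower, with a median of 0.63 beside 0.62 in all other barcodes. Mertk, the kinase receptor for dying cells, had 729 CPM and 374 CPM (log2 ratio 0.96, 0.78 to 1.14), against 0.38 in all other barcodes. Lrp1, a large endocytic receptor, had 829 UMIs and 404 UMIs, and Elmo1, which links engulfment to the actin skeleton, 1134 and 762 UMIs. Timd4 was the member 2-fold lower. Of 25 lysosomal genes measured, 3 were 2-fold higher and 0 were 2-fold lower, with a median of 0.40 beside 0.66 in all other barcodes. Those 3 were Ctss (cathepsin S), with 722 and 351 CPM, Lgmn (legumain), with 729 and 298 CPM, and Psap (prosaposin), with 1480.5 and 674 CPM. Ctsc, the dipeptidyl protease, had 669 CPM and 875 CPM. Ctss, Lgmn and Psap had positive ratios in each of the 3 sets as well, Psap at 1.05, 0.86 and 0.93 in those with Timd4, Lyve1 or Folr2, with Ccr2 and with neither.

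Scavenger and Fc receptors gave a mixed picture, with 3 of 14 measured 2-fold higher, 1 2-fold lower and a median of 0.42 beside 1.29 in all other barcodes. Itgam (CD11b), a complement receptor chain, had 276 UMIs in the library labelled p53 knockout and 89 UMIs in that labelled wild type, an interval of 1.16 to 1.87 for the log2 ratio. Cd36, the fatty acid translocase, had 308 UMIs and 872 UMIs (log2 ratio -1.62, -1.82 to -1.44), and was at -1.02 in all other barcodes. Endothelial cells and cardiomyocytes also express Cd36, and the part of their free RNA in this value was not tested. Msr1, a scavenger receptor, was at 0.45 as a log2 ratio, and Fcgr2b, the inhibitory Fc receptor, had 628 and 439 UMIs. Of 9 measured genes of lipid-associated macrophages outside the choice, 3 were 2-fold higher and 0 were 2-fold lower, with a median of 0.50 beside 0.70 in all other barcodes. Spp1 (osteopontin) had 73 UMIs and 3 UMIs (log2 ratio 4.27, 2.88 to 6.79). In fibroblasts Spp1 had 79.7 CPM and 0.213 CPM, beside 68.4 CPM and 3.06 CPM in macrophages, so its level in macrophages labelled p53 knockout was no higher than in fibroblasts of that library. Apoe, the lipid carrier, had 2935 UMIs and 2082 UMIs (0.29 to 0.45).

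Among complement genes outside C1q, 6 of 16 measured were 2-fold higher and 0 were 2-fold lower, with a median of 0.42 beside 1.36 in all other barcodes. C3 had 311 UMIs in the library labelled p53 knockout and 139 UMIs in that labelled wild type, and C4b 401 UMIs and 133 UMIs. C4b stood at 2.91 in all other barcodes, against 1.46 in macrophages.

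Chemokines stood on both sides. Of 14 measured, 6 were 2-fold higher and 4 were 2-fold lower, with a median of -0.21 beside 0.57 in all other barcodes. Ccl2, the main ligand of Ccr2, had 73 UMIs in the library labelled p53 knockout and 27 UMIs in that labelled wild type (log2 ratio 1.29, 0.66 to 2.01). Ccl7, another ligand of Ccr2, had 40 UMIs and 13 UMIs. Cxcl16, a membrane-bound chemokine, had 253 UMIs and 67 UMIs (log2 ratio 1.79, 1.40 to 2.20). Cxcl13, which draws B cells, had 51 UMIs and 2 UMIs, and 35 of the 51 were in macrophages with Timd4, Lyve1 or Folr2. Ccl24, an eosinophil attractant, had 5 UMIs and 30 UMIs (log2 ratio -2.59, -4.43 to -1.33). Ccl6 and Ccl9, which macrophages make at rest, lay nearer even, Ccl6 at 418 and 470 UMIs and Ccl9 at 179 and 226 UMIs. Of 6 chemokine receptors, 2 were 2-fold higher and 0 were 2-fold lower, with a median of 0.65 beside 0.99 in all other barcodes. Cxcr4, the receptor that holds leukocytes in the marrow, had 117 UMIs and 44 UMIs.

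Cytokines were sparsely counted, and 8 of 15 were measured, of which 2 were 2-fold higher and 1 was 2-fold lower (median 0.40, beside 1.18 in all other barcodes). Tnf had 20 UMIs and 3 UMIs, a ratio whose interval ran from 0.86 to 5.01. Il1b was near even in macrophages with 106 UMIs and 84 UMIs (-0.21 to 0.64), while it was at 2.97 in all other barcodes. Casp1, the inflammasome protease, had 33 UMIs and 65 UMIs. Cytokine receptors leaned one way: 17 of 18 measured lay above 0, 3 were 2-fold higher and 0 were 2-fold lower, with a median of 0.48 against 1.06 in all other barcodes. Il10ra, the receptor of the deactivating cytokine IL-10, had 396 UMIs and 216 UMIs, Il6ra 379 and 243 UMIs, and Csf2rb, the shared chain of GM-CSF receptors, 151 and 39 UMIs. Of 13 pattern recognition receptors, 3 were 2-fold higher and 1 was 2-fold lower (median 0.30, beside 0.60 in all other barcodes). Clec4e had 32 UMIs and 1 UMI, with an interval from 2.29 to 10.2, and Tlr8 43 UMIs and 99 UMIs.

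Interferon-stimulated genes stood slightly lower in the library labelled p53 knockout. Of 22 measured, 0 were 2-fold higher, 5 were 2-fold lower and 3 lay above 0. Their median was -0.31 in macrophages and 0.06 in all other barcodes. Ifi203, a DNA-sensing family member, had 220.1 CPM and 587 CPM (log2 ratio -1.41, -1.64 to -1.19). Its gene shares a strand and part of its span with Mndal, and whether counting used strand is not stated, so reads of the 2 may be mixed. Ifi207 had 465 UMIs and 480 UMIs, Oasl2 182 and 216 UMIs, and Xaf1 57 and 126 UMIs.

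Matrix and proteolysis genes stood higher under the p53 knockout label, as they did in all other barcodes together. Of 18 measured, 9 were 2-fold higher and 2 were 2-fold lower. The median was 1.05 in macrophages and 1.81 in all other barcodes, and they summed to 3308 CPM and 1531 CPM. Fn1 (fibronectin) had 476 UMIs and 46 UMIs (log2 ratio 3.23, 2.81 to 3.72). At 500 UMIs it was found in 11.5% (9.16 to 14.2) and 1.59% (0.874 to 2.66) of macrophages, beside 17.0% and 3.74% of fibroblasts, which were above the macrophages in both libraries, and 3.90% and 1.35% of cardiomyocytes, whose median UMIs were 1343.5 and 966. Fn1 was unevenly placed: macrophages with Ccr2 had 285 UMIs and 1 UMI of it, and those with Timd4, Lyve1 or Folr2 had 34 UMIs and 20 UMIs. Tgfbi, a secreted matrix adaptor, had 1020 UMIs and 403 UMIs over all macrophages (log2 ratio 1.22, 1.05 to 1.39). Its ratio was 2.05 (1.59 to 2.59) in macrophages with Ccr2, 0.17 (-0.14 to 0.47) in those with Timd4, Lyve1 or Folr2 and 1.05 (0.77 to 1.34) in those with neither. Thbs1 (thrombospondin) had 262 UMIs and 22 UMIs, and Mmp14, a membrane-anchored collagenase, 110 and 20 UMIs. Serpinb6a, an inhibitor of proteases, was 2-fold lower at 89 UMIs and 179 UMIs. Timp2 was near even, with 206 UMIs and 198 UMIs.

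Iron and haem genes had a median near even, with 1 of 15 measured 2-fold higher, 3 of 15 2-fold lower and a median of -0.19 beside 0.15 in all other barcodes, yet held some of the widest single differences. Hmox1, which breaks down haem, had 139.5 CPM (118 to 164) in the library labelled p53 knockout and 12.2 CPM (6.32 to 21.4) in that labelled wild type, which is 3.46 as a log2 ratio. Tfrc, the transferrin receptor, had 22.5 CPM and 147 CPM (log2 ratio -2.68, -3.40 to -2.08), beside -0.69 in all other barcodes. The haem transporter Slc48a1 had 8 UMIs and 28 UMIs, and Cp (ceruloplasmin), which oxidises exported iron, 190 UMIs and 471 UMIs. The ferritin chains were near even, Fth1 at 534 and 502 UMIs and Ftl1 at 452 and 362 UMIs, and the iron exporter Slc40a1 had 29 and 38 UMIs. Haemoglobin and other red cell markers summed to 2091 CPM in the macrophages labelled p53 knockout and 547 CPM in those labelled wild type, and their part in the iron genes' values was not tested.

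Lipid handling genes had a median of 0.18 over 21 measured, beside 0.40 in all other barcodes, with 3 2-fold higher and 1, Cd36, 2-fold lower. The cholesterol exporters were higher, Abca1 at 685 UMIs and 353 UMIs and Abcg1 at 70 UMIs and 18 UMIs, while Lpl (lipoprotein lipase) had 341 UMIs and 587 UMIs. Of 12 eicosanoid genes, 2 were 2-fold higher and 2 were 2-fold lower (median -0.17, beside 0.30 in all other barcodes). Ltc4s, which makes leukotriene C4, had 36.5 CPM and 180.5 CPM (log2 ratio -2.29, -2.84 to -1.80), and Pla2g7, which inactivates platelet-activating factor, had 316 UMIs and 89 UMIs. Of 16 glycolytic genes, 5 were 2-fold higher and 0 were 2-fold lower, with a median of 0.67 beside 0.72 in all other barcodes. The lactate exporter Slc16a3 had 38 UMIs and 4 UMIs, whereas Gapdh was near even at 191 and 197 UMIs. Growth factors had a median of 0.19 over 10 measured, beside 0.82 in all other barcodes, with 1 of them 2-fold higher and 0 2-fold lower. Tgfb1 had 201 UMIs and 101 UMIs, Pdgfc 154 and 270 UMIs, and Vegfa 121 and 119 UMIs.

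Most transcription factors of the lineage differed less than 2-fold. Of 36 measured, 4 were 2-fold higher and 0 were 2-fold lower, with a median of 0.28 beside 0.62 in all other barcodes. Maf, which helps hold macrophages in a resting, non-dividing state, had 518 UMIs in the library labelled p53 knockout and 666 UMIs in that labelled wild type (log2 ratio -0.49, -0.65 to -0.32). Mef2c had 674 UMIs and 1179 UMIs (log2 ratio -0.93, -1.07 to -0.79), and the lineage master Spi1 302 and 166 UMIs. Zeb2 was near even with 2944 UMIs and 3078 UMIs. Bhlhe40 had the widest difference, with 99 UMIs and 11 UMIs (2.15 to 4.09), and Cebpb, a factor of monocytes and inflammatory macrophages, had 320 UMIs and 129 UMIs. Immediate early genes, which respond within minutes to stress and to tissue dissociation, had a median of 0.71 over 17 measured, beside 0.67 in all other barcodes, with 5 of them 2-fold higher and 0 2-fold lower. Klf2 had 473 UMIs and 274 UMIs, Dusp1 460 and 220 UMIs, and Egr1 29 and 43 UMIs. The part of tissue handling in the other differences was not tested.

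Of 24 known targets of p53 measured, 16 lay above 0, beside 47.8% of all genes, 4 were 2-fold higher and 1 was 2-fold lower under the p53 knockout label, and their median was 0.24 beside 0.28 in all other barcodes. Cdkn1a, the cell cycle inhibitor p21, had 58 UMIs and 20 UMIs (log2 ratio 1.39, 0.66 to 2.22), and was found in 3.22% and 1.03% of macrophages at 500 UMIs. In fibroblasts its shares were 1.92% and 0.909%. Ccng1 had 50 UMIs and 76 UMIs (-1.27 to -0.19), Mdm2 146 and 121 UMIs (-0.21 to 0.51), and Bax 71 and 31 UMIs. Few macrophages held Mki67. Of 11 cell cycle genes measured, 4 were 2-fold higher and 0 were 2-fold lower (median 0.41, beside 0.51 in all other barcodes). The division marker Mki67 had 50 UMIs and 16 UMIs. At 500 UMIs it was found in 0.767% (0.249 to 1.78) and 0.569% (0.185 to 1.32) of macrophages, and these intervals overlapped.

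**Figure D5:**
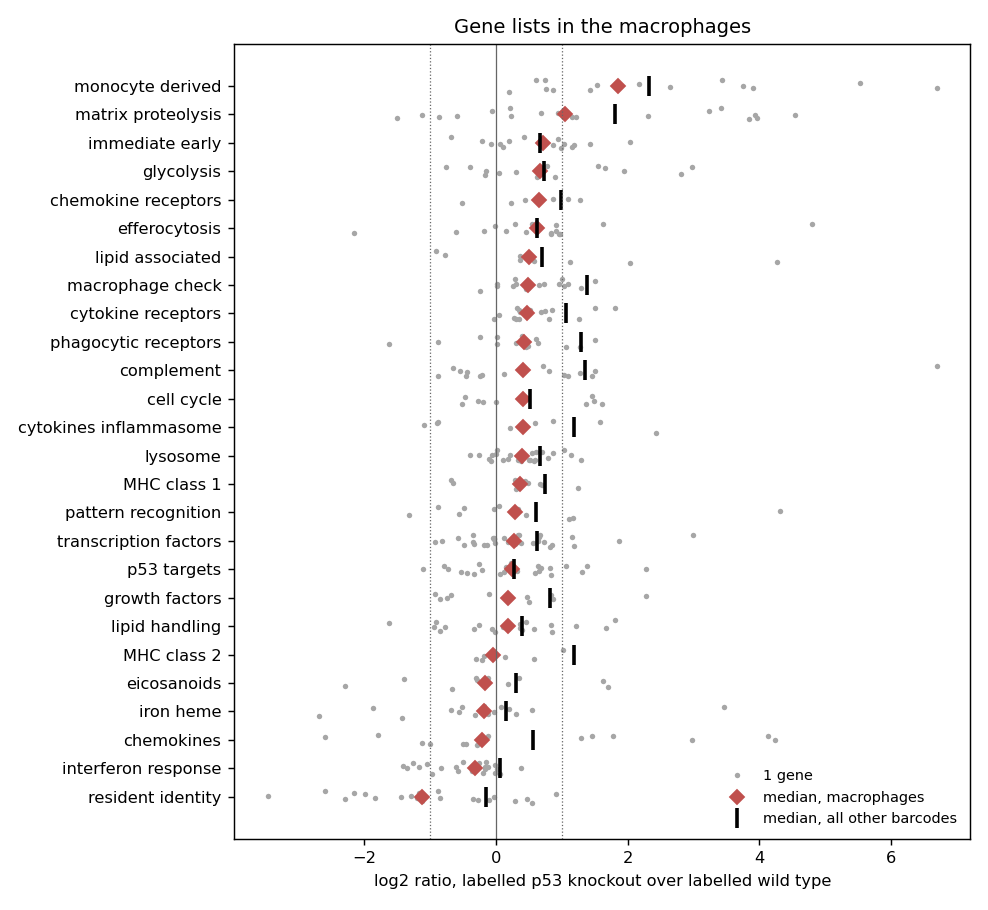
Log2 ratio, p53 knockout label over wild-type label (x axis), for the measured genes of each list (y axis): grey points are single genes in macrophages, diamonds their median, and black ticks the median of the same genes in all other barcodes. Resident genes have the lowest macrophage median at -1.12 and monocyte genes the highest at 1.85, and MHC class II genes stand at -0.04 in macrophages and 1.18 elsewhere.

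Outside the lists, the 12 highest and 12 lowest ratios were taken among 2052 genes with at least 100 UMIs in 1 library that were at least as high in macrophages as in other barcodes there. At the top stood Fgr, a Src family kinase of myeloid cells, with 164 UMIs in the library labelled p53 knockout and 4 UMIs in that labelled wild type (log2 ratio 5.07, 3.85 to 7.13). Cd300lf, an inhibitory receptor that binds membrane lipids, had 136 UMIs and 4 UMIs, and Adam8, a membrane protease, 114 and 4 UMIs. Plaur, the urokinase receptor, had 117 UMIs and 7 UMIs, and Hmox1 followed. The rest were Trpm2 (a calcium channel opened by oxidative stress), the sorting receptor Sorl1, the receptor kinase Grk3, the inhibitory lectin Cd72, Csmd1, the tyrosine kinase Ptk2b and the adhesion protein Emb, at 2.28 to 2.55. Csmd1 had 138 CPM in macrophages and 256 CPM in fibroblasts of the library labelled p53 knockout. Its log2 ratio was 2.47 in macrophages and 3.18 in fibroblasts. Cd72 had 279 UMIs and 45 UMIs, and Ptk2b 306 and 55 UMIs. At 500 UMIs, Fgr was found in 5.52% and 0.228% of macrophages and in 1.06% and 0.0519% of fibroblasts.

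These genes were spread differently over the macrophages. Fgr was higher in each set, at 4.47 (2.36 to 10.4) in macrophages with Timd4, Lyve1 or Folr2, 4.28 (2.34 to 10.2) in those with Ccr2 and 4.13 (2.52 to 7.52) in those with neither. Hmox1 stood at 3.33 in those with Timd4, Lyve1 or Folr2 and at 3.50 in those with neither, while those with Ccr2 held 25 UMIs and 0 UMIs of it. Grk3 and Cd72 were at 0.65 and 0.91 in macrophages with Timd4, Lyve1 or Folr2, with intervals that held 0. In those with Ccr2, Grk3 was at 2.80 (1.41 to 5.33) and Cd72 at 2.89 (1.65 to 4.95). In all other barcodes the 12 highest genes were higher as well, from 0.63 for Grk3 to 5.25 for Cd300lf. Fgr was at 3.89 there, Adam8 at 3.38 and Plaur at 2.13. The ratios of Cd300lf and Hmox1 were larger there than in macrophages.

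At the bottom stood Vmn2r96, a gene annotated as a vomeronasal pheromone receptor, with 1 UMI in the library labelled p53 knockout and 374 UMIs in that labelled wild type (-14.0 to -6.18). Slc15a2, a transporter of small peptides, had 14 UMIs and 431 UMIs (log2 ratio -5.02, -5.95 to -4.31), and was almost as low in all other barcodes at -4.91. Tfrc, Ltc4s, Timd4, Folr2, Mgl2 and Ifi203, given above, were also among the 12. Cmah, the hydroxylase that makes the sialic acid Neu5Gc, had 197 UMIs and 526 UMIs (log2 ratio -1.54, -1.78 to -1.30), while in all other barcodes it was at 1.24. Rasgrp3, an activator of Ras, had 94 UMIs and 239 UMIs, and was at -0.13 in all other barcodes. Dnajc19, a mitochondrial import protein, had 36 and 112 UMIs, and Esco1, a cohesin acetyltransferase, 74 and 181 UMIs. In all other barcodes Vmn2r96 was at -3.23, Dnajc19 at -1.04 and Esco1 at -1.47, beside -1.41 for Esco1 in macrophages. Among the 12 lowest genes, Cmah alone was higher in all other barcodes. Of the 24 genes, 13 overlap another annotated gene, 4 of them on the same strand.

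The genes that varied most among the macrophages of 1 library included Malat1, Cd74, F13a1 and genes of other cells such as Nppa and Rgs5. After thinning, the median ratio of variance to mean over genes with at least 50 UMIs was 1.24 in the library labelled p53 knockout and 1.29 in that labelled wild type. Cd74 reached 3.22 and 3.42, with up to 11 UMIs in 1 macrophage in each library, and F13a1 reached 2.86 and 3.22, which places it among the highest of all genes in both libraries. Csf1r was close to the median, at 1.24 and 1.44. In the library labelled p53 knockout the 10 highest outside the choosing genes held Cd74 and the atrial peptide gene Nppa (5.17), the gelsolin gene Gsn (4.46), Cmss1, Thbs1, Col8a1, Postn, Malat1, Mgp and Fn1 (2.85). In that labelled wild type they held Cd74, Malat1 (3.54), Gsn (3.20), Dennd5b, Emcn, Gucy1a2, Fbn1, Mctp1, Bmp6 and the pericyte gene Rgs5 (2.63).

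Markers of other cell types were present in the macrophages, some at sums as high as those of macrophage genes, and differed between the libraries. Cardiomyocyte markers outside the choice summed to 3038 CPM in macrophages labelled p53 knockout and 6176 CPM in those labelled wild type, with the wild-type sum above the 4735 CPM of the 17 macrophage genes, and each below the 5335 CPM and 11637 CPM of all other barcodes of the same library. Fibroblast markers summed to 2551 and 2386 CPM, and endothelial markers to 1456 and 1928 CPM. B cell markers summed to 782 and 1311 CPM, of which the B cell-restricted Cd79a had 16 and 7 UMIs and Ms4a1 2 and 5 UMIs. Dendritic markers summed to 333 and 261 CPM, with Xcr1 at 1 and 0 UMIs and Clec9a at 0 and 4 UMIs. Neutrophil markers summed to 201 and 71.4 CPM, with Ly6g at 0 in both, T and NK markers to 40.3 and 11.2 CPM, and mast cell markers to 8.43 and 15.3 CPM. Lymphatic endothelial markers, which matter for Lyve1, summed to 108 and 94.9 CPM. Mural, mesothelial, Schwann and adipocyte markers summed to 441, 116, 66.5 and 49.6 CPM in the library labelled p53 knockout and to 517, 90.8, 61.2 and 52.0 CPM in that labelled wild type. Their part in the results was not tested beyond leaving out macrophages with 2 or more UMIs of B cell, T or NK cell, dendritic, neutrophil or lymphatic markers, which kept 321 and 484 macrophages.

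Set beside the 99 macrophages of the library labelled p53 knockout that met the other conditions but held 2 or more UMIs of Gpnmb, Arg1, Mmp12 and Trem2, the macrophages described here stood higher in Lyve1 and Timd4. The library labelled wild type held 14 such barcodes, of which 42.9% (17.7 to 71.1) had Timd4, Lyve1 or Folr2 at 500 UMIs, against 31.0% of the macrophages there, and they are too few to compare further. In the library labelled p53 knockout, Lyve1 had 280.0 CPM in the macrophages described here and 53.5 CPM in the Gpnmb group, and Timd4 42.1 CPM and 0 UMIs. Adam8 had 107 and 680 CPM, Hmox1 139.5 and 519 CPM, Thbs1 245 and 787 CPM, and Lgmn 729 and 1367 CPM. MHC class II genes summed to 2919 and 3295 CPM, and Ccr2 had 301 and 400 CPM. The Gpnmb group's median depth was 2039 UMIs, and with 1 library these values were not tested.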

How the data were processed

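Single-cell libraries were made with a 10x Genomics 3' kit per the labels' protocols. Cell Ranger, Seurat and mm10 are named per the submitters' processing notes, and their versions are not given in the sources used. The deposited values are UMI counts per gene and barcode, not normalized, with 1 matrix per library. The deposited matrices were used as they stand, without removing doublets. Scrublet's automatic threshold marked 0 barcodes, so removing the top 8% by its score entered an alternative only. The macrophage conditions were applied to every barcode, and UMIs were summed per library. CPM and log2 ratios (library labelled p53 knockout over library labelled wild type, 0.5 UMI added) were computed without mitochondrial genes, with exact binomial and Poisson 95% intervals. Barcodes were thinned to 500 UMIs with a fixed seed. The named genes were the 12 highest and 12 lowest ratios among genes with at least 100 UMIs in 1 library and a CPM there at least that of other barcodes. Mitochondrial, ribosomal, haemoglobin, sex-linked, unnamed and choosing genes were left out. The macrophages and gene lists were chosen with earlier results of these data known. Python 3.11.15, numpy 2.4.6, scipy 1.17.1, pandas 2.3.3 and scanpy 1.11.5 were used, and the calculations were tested on simulated data. Results of some genes are not reported here.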

Additional observations from a re-analysis of the deposited data

How the results depend on the processing

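Results were recomputed under 12 other settings, 2 of them chosen after seeing the data. All 288 values of the 24 named genes kept their direction, and 286 stayed past 2-fold. These genes were chosen for the widest ratios of the main setting on largely the same barcodes, so this count is a description and not a check. Of 312 medians of 26 lists, 293 kept their direction. The resident median ranged from -1.13 to -0.65, the monocyte median from 0.81 to 2.01 and the MHC class II median from -0.66 to 0.14. The log2 ratio of the macrophage share, 0.24, was 0.46 with a cardiomyocyte share under 1% and 0.074 without macrophages holding markers of other cell types. Genes 2-fold higher and lower numbered 295 and 285 of 5002 with at least 100 UMIs per gene, or 5.90% and 5.70%. With no minimum beyond 1 UMI they numbered 3988 and 4174 of 20315, or 19.6% and 20.5%. In the main setting the shares were 7.57% and 9.82%. Ratios changed sign, among others, for F13a1 (0.00083) and Mki67 (-0.016) when barcodes were chosen after thinning, for Plin2 (-0.079) when the macrophages were thinned, and for Notch3 (-1.89) without macrophages holding markers of other cell types. Other ratios also changed sign in at least 1 setting, with ranges of -0.39 to 0.22 for H2-Aa, -0.48 to 0.07 for H2-Eb1, -0.38 to 0.28 for Il1b, -0.66 to 0.50 for Nr4a1, -0.12 to 0.14 for Fth1, -0.24 to 0.09 for Ifi207, -0.75 to 0.11 for Vegfa, -0.36 to 0.16 for Timp2 and -0.76 to 0.05 for Egr1. List medians changed sign for growth factors (-0.16 to 0.27), chemokines (-0.33 to 0.35), complement (-0.05 to 0.42), pattern recognition (-0.25 to 0.31), p53 targets (-0.24 to 0.42), cytokines (-0.05 to 0.87), cell cycle (-0.24 to 0.82), iron and haem (-0.29 to 0.04) and MHC class II. The cause was not tested beyond the fewer genes or barcodes that these settings keep. No paired analysis was possible because each group is 1 library. Genes with few UMIs are limited by depth, and hearts, sex and library cannot be told apart from the label.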
